A study of Homo sapiens with 6 samples.

Results

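AP-1 is a dimeric transcription factor built from FOS proteins and JUN proteins, and 10 genes around it were measured by RNA sequencing in ovarian cancer cells before and after paclitaxel. The genes were the FOS family (FOS, FOSB, FOSL1, FOSL2), the JUN family (JUN, JUNB, JUND), the stress-induced AP-1 partner ATF3, and the immediate-early genes EGR1 and DUSP1. They were chosen by name, as 10 of the 59008 gene symbols listed, with earlier results of these data known. Hey and SKOV3, both established lines from human ovarian cancers, were each sequenced as untreated parental cells, as polyploid giant cancer cells (PGCCs) and as daughter cells, with 1 library per condition and 6 libraries in all. PGCCs are the enlarged, multinucleated or polyploid cells that survive the drug. They were obtained with 500 nM paclitaxel for at least 16 h and recovered in drug-free medium for 3 days. For the SKOV3 PGCCs the treatment label gives 3 days and the title gives day 7. Daughter cells had the same treatment and 30 days of recovery, and each line's daughter library is labelled as 1 clone, so it stands for that clone. Hey cells grew in MEM Eagle medium and SKOV3 cells in RPMI medium, both with fetal bovine serum, so line and medium cannot be told apart. The libraries are bulk samples, in which fewer cells of a type and less RNA per cell cannot be told apart.

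Expression was given in transcripts per 1000000 (TPM), which corrects for transcript length, so levels can be set side by side between genes of a library. The 6 columns summed to between 911825 and 920497 TPM, and between 19920 (Hey parental) and 25370 (Hey PGCC) genes were above 0. The share of mitochondrial genes was 2.64%, 12.3% and 7.60% for the parental, PGCC and daughter libraries of Hey, against 9.17%, 7.37% and 14.8% for those of SKOV3. The epithelial markers PAX8 and KRT8 were above 50 TPM in all 6 libraries. Of 10 such markers, between 5 and 7 reached 1 TPM in the Hey libraries and between 9 and 10 in the SKOV3 libraries. The adhesion gene CDH1 was listed at 0 in Hey parental cells and Hey PGCCs, and EPCAM lay between 0.369 and 1.43 TPM in Hey. The summed level of 8 fibroblast markers was between 0.302 and 28.3 TPM, highest in SKOV3 daughter cells. The summed level of 6 leukocyte markers was between 1.69 and 69.7 TPM, nearly all of it from CD68 where it was highest, and CD3E was listed at 0 in every library. The 4 endothelial markers summed to between 33.7 and 49.1 TPM in Hey, nearly all of it CDH5 (33.2 to 48.5 TPM, the other 3 at most 0.71 TPM), and to at most 2.92 TPM in SKOV3.

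Immediate-early genes are transcribed within minutes of a growth factor or stress signal, from promoters that are already loaded with factors such as SRF and CREB, and need no new protein for it. Signals reach them largely through the MAP kinases ERK, JNK and p38. Their products are transcription factors, such as the FOS and JUN proteins and EGR1, or feedback inhibitors, such as the phosphatase DUSP1. FOSL1 and FOSL2 lack the strong activation domain of FOS and FOSB and are made later and for longer, and JUNB is often a weaker activator than JUN.

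Without replicate libraries a difference between conditions has no replicate check. Differences were taken on the log2(TPM + 1) scale, and a gene was called at a difference of at least 1 in size, a 2-fold change. The same call over the 14988 genes with a mean of at least 1 TPM gave the background, and all 10 genes were among these. "Rose" and "fell" below mean that a gene was called.

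In Hey PGCCs, the transcripts of EGR1, FOS and FOSB were lower than in parental cells and that of ATF3 was higher. In SKOV3 PGCCs, FOS and JUNB were higher and EGR1 and FOSB were close to the parental level, before removal of the GC trend described below. In Hey PGCCs 1 of the 10 genes rose, against 7.67% of all genes, and 3 fell, against 5.22%. In SKOV3 PGCCs 2 rose, against 9.94% of all genes, and 0 fell, against 4.96%. The median difference of the 10 genes was -0.37 in Hey (0.00 over all genes) and 0.13 in SKOV3 (0.02 over all genes). These SKOV3 counts and this median were also taken before removal of the GC trend. After it, EGR1 (-0.27), DUSP1 (-0.36) and FOSL1 (-0.50) also lay below 0 in SKOV3 PGCCs. The sign of the SKOV3 median thus depended on the trend.

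**Figure D1:**
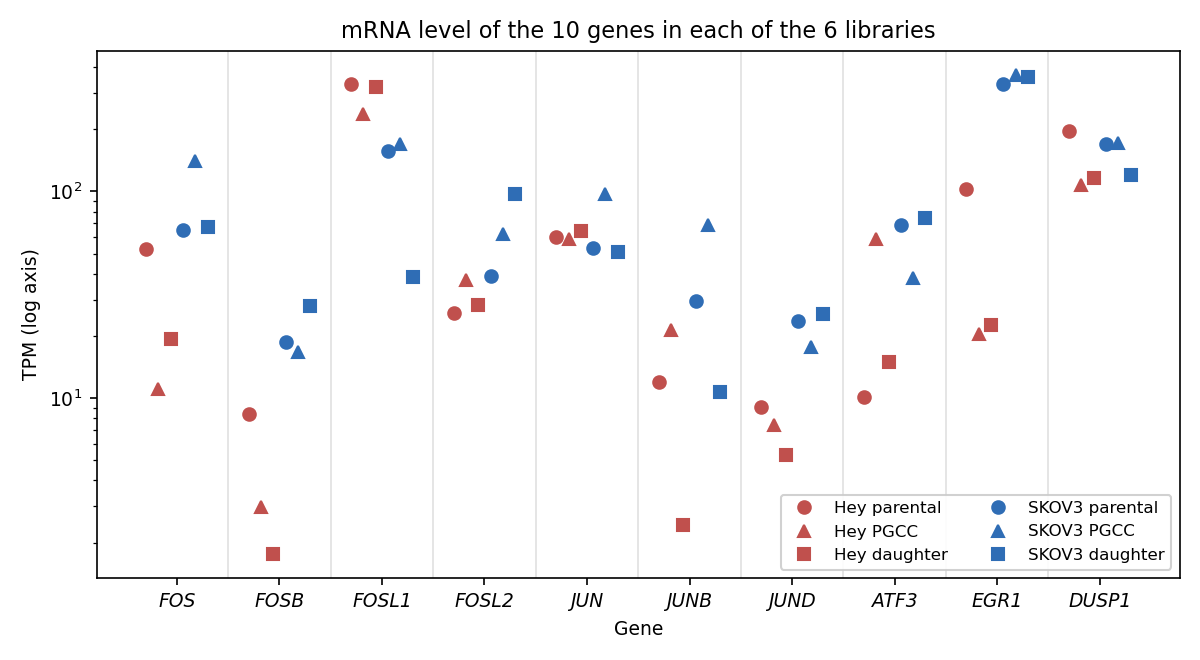
Level of the 10 genes in each library (TPM, log axis; 1 point per library, red for Hey and blue for SKOV3, so there is no error bar). EGR1 and FOS sit far lower in Hey PGCCs (20.4 and 11.1 TPM) than in SKOV3 PGCCs (367 and 141 TPM), and JUNB is lowest in the daughter cells of both lines (2.42 and 10.7 TPM).

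FOS encodes c-Fos, the founding member of its family. Its level in Hey was 52.5 TPM before treatment, 11.1 TPM in PGCCs and 19.4 TPM in the daughter clone, and in SKOV3 it was 65.4, 141 and 67.5 TPM in the same order. The parental cells of the lines were thus near each other, while the PGCCs stood at opposite ends of the 6 values. The difference between PGCCs and parental cells was -2.15 in Hey, at percentile 0.554 of all genes, and 1.10 in SKOV3, at percentile 92.1. In daughter cells against parental cells it was -1.39 in Hey and 0.04 in SKOV3, so FOS remained lower in the Hey clone and was near the parental level in the SKOV3 clone. FOSB, the other strong activator of the family, was at 8.38, 2.99 and 1.76 TPM in Hey parental cells, PGCCs and daughter cells and at 18.7, 16.7 and 28.1 TPM in SKOV3. It was lower in Hey PGCCs by a log2 difference of -1.23 and in Hey daughter cells by -1.76, while neither SKOV3 difference reached the call (-0.16 and 0.56).

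EGR1, a zinc finger transcription factor, had 103 TPM in parental Hey cells, 20.4 TPM once these had become PGCCs and 22.6 TPM in the daughter clone. In SKOV3 it had 331, 367 and 359 TPM in that order. EGR1 fell in Hey PGCCs (-2.29, percentile 0.420 of all genes) and was called lower by nearly the same amount in Hey daughter cells (-2.14), while the 3 SKOV3 libraries stayed within 0.15 of each other on the log2 scale. It was the most abundant of the 10 genes in each SKOV3 library. DUSP1, a phosphatase that inactivates MAP kinases, was at 195, 107 and 117 TPM in Hey and at 170.3, 172 and 120.3 TPM in SKOV3. Its Hey PGCC difference of -0.86 was not called, and across the 6 libraries its range of 0.86 was the smallest of the 10 genes.

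The promoters of EGR1, FOS, FOSB and DUSP1 are printed because these 4 genes had the lowest differences of the 10 in Hey PGCCs, and JUNB because its level separated the daughter cells from the PGCCs in both lines. Each sequence is the 250 bases before the RefSeq start of the gene (GRCh38.p14), read 5′ to 3′ on the gene's strand. EGR1 is from chr5:138465229-138465478 (plus strand), FOS from chr14:75278578-75278827 (plus), FOSB from chr19:45467746-45467995 (plus), DUSP1 from chr5:172771196-172771445 (minus) and JUNB from chr19:12791236-12791485 (plus). Capitals mark CRE half-sites (TGACG or, on the other strand, CGTCA), the full CRE (TGACGTCA, which holds both half-sites), CArG boxes and the TATA box (TATAAA).
EGR1: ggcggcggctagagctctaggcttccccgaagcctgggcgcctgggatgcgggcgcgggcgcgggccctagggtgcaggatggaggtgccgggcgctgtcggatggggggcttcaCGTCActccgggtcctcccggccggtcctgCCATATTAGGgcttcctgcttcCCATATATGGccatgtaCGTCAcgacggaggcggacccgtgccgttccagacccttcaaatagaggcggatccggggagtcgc
FOS: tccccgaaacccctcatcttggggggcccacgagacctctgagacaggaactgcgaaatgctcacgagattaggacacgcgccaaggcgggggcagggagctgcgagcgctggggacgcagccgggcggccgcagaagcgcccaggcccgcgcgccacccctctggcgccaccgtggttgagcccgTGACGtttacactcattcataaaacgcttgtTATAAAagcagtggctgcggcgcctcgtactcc
FOSB: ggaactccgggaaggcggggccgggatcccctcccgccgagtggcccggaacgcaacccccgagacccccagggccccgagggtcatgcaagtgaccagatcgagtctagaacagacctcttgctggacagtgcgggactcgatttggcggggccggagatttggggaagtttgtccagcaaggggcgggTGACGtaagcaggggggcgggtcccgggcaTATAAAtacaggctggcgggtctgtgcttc
DUSP1: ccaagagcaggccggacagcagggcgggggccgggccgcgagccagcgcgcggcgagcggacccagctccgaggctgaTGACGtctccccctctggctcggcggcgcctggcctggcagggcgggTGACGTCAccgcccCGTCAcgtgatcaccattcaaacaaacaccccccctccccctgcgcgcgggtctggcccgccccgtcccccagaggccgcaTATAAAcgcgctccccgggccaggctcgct
JUNB: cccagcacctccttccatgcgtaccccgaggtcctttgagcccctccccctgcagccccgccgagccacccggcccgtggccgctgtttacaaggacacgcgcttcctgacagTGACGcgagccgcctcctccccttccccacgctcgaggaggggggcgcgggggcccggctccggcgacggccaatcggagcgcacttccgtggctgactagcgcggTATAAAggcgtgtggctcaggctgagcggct

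The CArG box is the motif that SRF binds, and the cyclic AMP response element (CRE) the one that CREB and ATF proteins bind. CArG boxes were found at 2 places in the EGR1 window, starting at -105 and -83 (the base just before the start being -1). None of the other windows of the 10 genes held one. Only these 250 bases were searched, so a motif further upstream of any gene would have been missed. Of all 35116 promoter windows 1.16% held one. A full CRE lay in DUSP1 (at -125) and in JUND (at -200), against 1.65% of all windows. A CRE half-site was present in 8 of the 9 genes with a window, against 21.2% of all windows. The motifs were chosen after these sequences were seen, so their shares among the 10 genes are not a test of enrichment. Genes were counted here, ATF3 having 2 windows, while the background counts single windows. TATAAA on the gene's strand was present in 5 of the 9, against 6.80%, and in FOS, FOSB, DUSP1 and JUNB it began at -33, -30, -30 and -31. In ATF3 it began at -230, far from those positions, in the window at chr1:212614768-212615017. That window lies inside the GENCODE span of ATF3 given below, not before it. The lack of a CRE half-site in ATF3 likewise covers only the bases of its windows. TGACTCA, the classical AP-1 motif, which reads TGAGTCA on the other strand, was in 0 of the 9 and in 4.20% of all windows. TGACATCA, a variant of it that reads TGATGTCA on the other strand, was in JUN (at -67) and ATF3 (at -123) and in 2.37% of all windows. The genes with a CRE half-site included some that fell in Hey PGCCs (EGR1, FOS, FOSB) and some that were not called there (DUSP1, JUN, JUNB, JUND, FOSL2). FOSL1 had no entry. In the GENCODE annotation of the same build, EGR1 (2 exons) spans chr5:138465479-138469303, FOS (4 exons) chr14:75278826-75282230, FOSB (4 exons) chr19:45467995-45475179, DUSP1 (4 exons) chr5:172768096-172771195, ATF3 (4 exons) chr1:212565334-212620777, FOSL1 (4 exons, minus strand) chr11:65892049-65900573 and FOSL2 (4 exons) chr2:28392448-28417317. The motif matches describe the letters of the windows, and no binding was measured.

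ATF3, a stress-induced factor of the ATF and CREB family that pairs with JUN proteins, moved the other way in Hey. It had 10.1 TPM in the parental library, 58.8 TPM in the PGCC library and 14.9 TPM in the daughter library. In SKOV3 it was at 69.0, 37.9 and 74.6 TPM. Hey PGCCs thus stood above both other Hey libraries, and SKOV3 PGCCs below both other SKOV3 libraries. ATF3 rose in Hey PGCCs by 2.43 (percentile 98.7 of all genes) and was lower again in Hey daughter cells than in PGCCs (-1.91). The SKOV3 differences were -0.85 for PGCCs and 0.96 for daughter cells against PGCCs, and neither was called. The level in Hey PGCCs, though the highest of its line, lay below that of SKOV3 parental cells.

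FOSL1, which encodes FRA-1, was the most abundant of the 10 genes in all 3 Hey libraries, at 330.2, 237 and 321 TPM in parental cells, PGCCs and daughter cells. In SKOV3 it was at 157.5, 169 and 38.6 TPM. The SKOV3 daughter clone was therefore the only library below 100 TPM, and FOSL1 was called lower there than in parental cells (-2.003, percentile 1.94 of all genes) and than in PGCCs (-2.11). The Hey differences were between -0.47 and 0.43. FOSL2, which encodes FRA-2, was at 25.9, 37.1 and 28.1 TPM in Hey and at 39.2, 62.0 and 96.8 TPM in SKOV3. It rose in the SKOV3 daughter clone against parental cells (1.28), in the library where FOSL1 was lowest. In PGCCs it was above the parental level in both lines, by 0.50 in Hey and 0.65 in SKOV3, which was below the call.

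JUNB had the widest range of the 10 genes, with a highest value 28.5 times the lowest. The Hey libraries held 12.0 TPM (parental), 21.5 TPM (PGCC) and 2.42 TPM (daughter). In SKOV3 it was at 29.4, 68.9 and 10.7 TPM. In both lines the order was the same, with PGCCs highest and daughter cells lowest. The differences between PGCCs and parental cells were 0.79 in Hey, not called, and 1.20 in SKOV3, which was called. Daughter cells were lower than PGCCs by -2.71 in Hey (percentile 1.01 of all genes) and -2.58 in SKOV3 (percentile 1.33), and lower than parental cells by -1.92 and -1.37. Of the 10 genes, JUNB alone was called the same way for Hey and SKOV3 in any of the 3 comparisons. The share of all genes called the same way in both lines was not computed, so this count has no background. JUNB (chr19:12791486-12793315, plus strand, 1 exon) overlaps exons of HOOK2 on the other strand, and strandedness of the libraries is not given in the sources used here, so reads of the overlap may have been counted for either gene. HOOK2 was at 3.55, 3.68 and 3.12 TPM in Hey and at 14.7, 26.1 and 27.7 TPM in SKOV3, so its order over the states was that of JUNB in Hey and not in SKOV3. The part of the overlap in the JUNB values was not tested.

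JUN, the main partner of the FOS proteins, was at 60.0, 59.0 and 64.1 TPM in Hey parental cells, PGCCs and daughter cells. In SKOV3 it was at 53.6, 97.5 and 50.9 TPM. Only SKOV3 PGCCs stood apart, with a difference of 0.85 from parental cells that was not called. JUND was at 9.09, 7.44 and 5.31 TPM in Hey and at 23.6, 17.6 and 25.4 TPM in SKOV3. Across the 6 libraries its range on the log2 scale was 2.07, against 0.92 for JUN. None of its within-line differences was called (-0.68 to 0.51) before removal of the GC trend described below, and each Hey library was below each SKOV3 library. JUN and JUND are, like JUNB, single-exon genes, on the minus strand at chr1:58776845-58784048 and chr19:18279694-18281622.

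**Figure D2:**
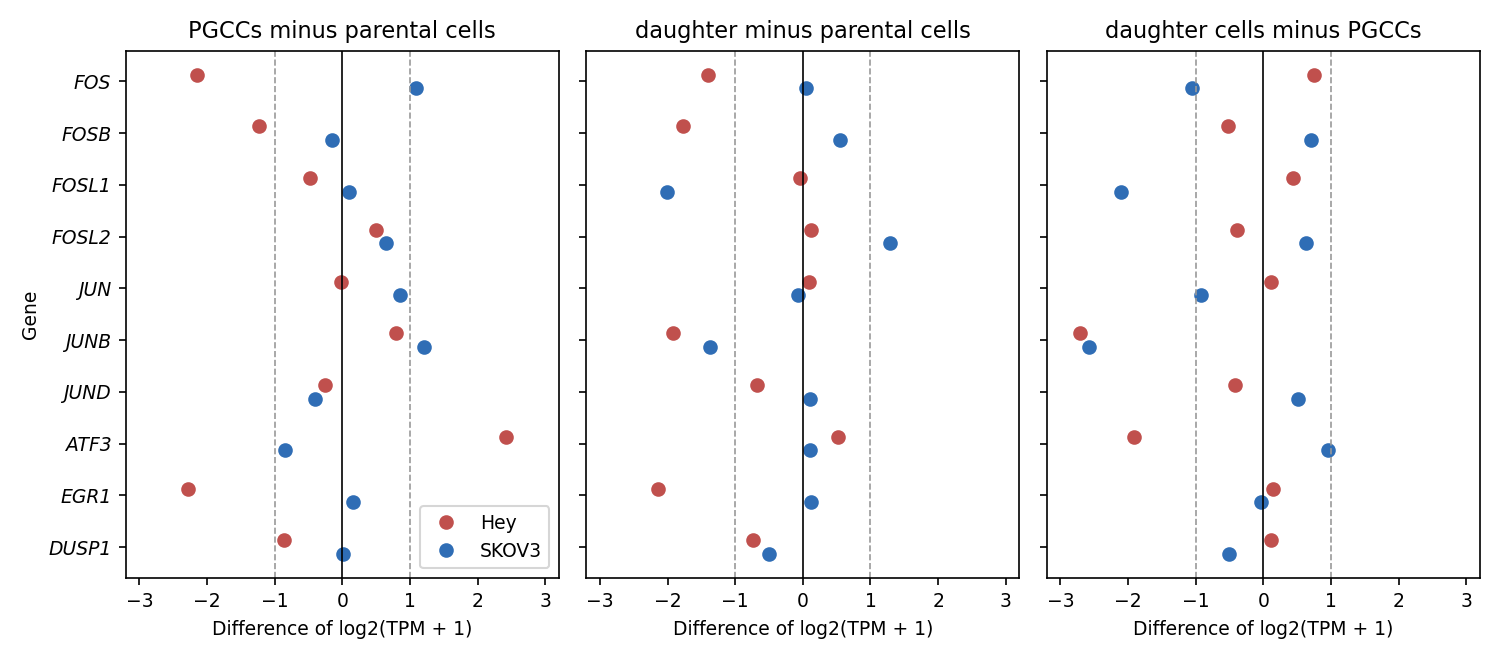
Difference of log2(TPM + 1) of the 10 genes in 3 comparisons (1 library per condition, so there is no error bar; red for Hey, blue for SKOV3; dashed lines mark the 2-fold call). FOS and ATF3 lie on opposite sides of 0 in the PGCCs of the lines (FOS -2.15 and 1.10, ATF3 2.43 and -0.85), and JUNB lies below -2 in both lines when daughter cells are set against PGCCs. With the GC and length trend removed, that JUNB value was -1.84 in SKOV3.

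In the SKOV3 PGCC library the difference from parental cells was larger for transcripts of higher GC content over all genes (Spearman correlation across genes 0.72, over the 13468 genes with a matched transcript, which are not independent replicates). In Hey the same correlation was -0.04. The median difference in SKOV3 was 0.37 for transcripts of 52 to 54% GC and 0.99 for 64 to 66% GC. FOS has 52.8% GC, JUNB 64.9% and JUND 69.9%. With the trend on GC content and length removed, the SKOV3 PGCC differences became 0.89 for FOS, 0.27 for JUNB and -1.52 for JUND, so the 2 calls were lost and JUND was called lower. Those of JUN, FOSL2, EGR1, DUSP1, FOSL1, FOSB and ATF3 became 0.38, 0.24, -0.27, -0.36, -0.50, -0.74 and -0.89, and none was called. The Hey differences of FOS, EGR1 and ATF3 were then -2.16, -2.20 and 2.36. The cause of the GC trend was not tested.

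**Figure D3:**
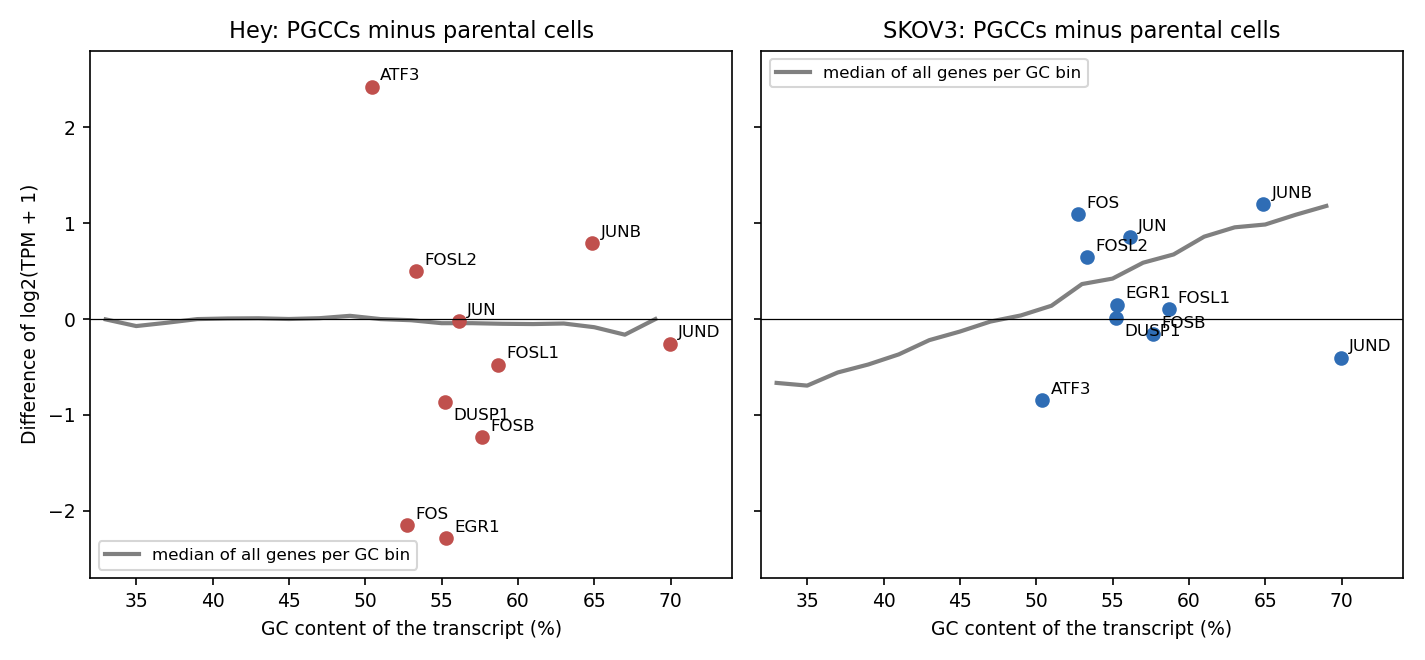
Difference between PGCCs and parental cells (log2(TPM + 1)) against the GC content of the transcript (%), with 1 point per gene and the median of all genes per GC bin as a line. In SKOV3 JUNB lies near the line, at 1.20 against a bin median of 0.99, and JUND lies below it. In Hey the line is flat and EGR1, FOS and ATF3 lie far from it.

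In daughter cells against parental cells, 0 of the 10 genes rose in Hey (background 6.31%) and 4 fell (3.73%): EGR1, JUNB, FOSB and FOS. In SKOV3, 1 rose (15.1%), FOSL2, and 2 fell (6.34%), FOSL1 and JUNB. Against PGCCs, Hey daughter cells had 0 genes up (9.95%) and 2 down (8.13%), JUNB and ATF3, and SKOV3 daughter cells had 0 up (14.6%) and 3 down (9.25%), JUNB, FOSL1 and FOS. The 4 genes lower in the Hey clone than in parental cells were thus EGR1, FOS and FOSB, which were already lower in PGCCs, and JUNB, which was not. The comparisons of a line share libraries, so their values are not independent of each other.

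The makeup of the FOS family differed between the lines. FOSL1 made up 79.2%, 82.3% and 86.7% of the family's summed TPM in parental, PGCC and daughter libraries of Hey. In SKOV3 it made up 56.1%, 43.5% and 16.7%. FOS itself took 12.6%, 3.8% and 5.2% in Hey and 23.3%, 36.2% and 29.2% in SKOV3, and in SKOV3 daughter cells FOSL2 was the largest share at 41.9%. In the JUN family, JUN held the largest share in every library, between 50.3% (SKOV3 parental) and 89.2% (Hey daughter). JUNB held its largest share in the PGCCs of each line, at 24.4% in Hey and 37.5% in SKOV3, and its smallest in the daughter cells, at 3.4% and 12.3%. The summed FOS family was 5.14, 3.28 and 5.15 times the summed JUN family in Hey parental cells, PGCCs and daughter cells, and 2.64, 2.11 and 2.65 times in SKOV3. The ratio in TPM was thus lowest in the PGCCs of each line, with the GC trend of the SKOV3 PGCC library left in. The sums themselves were 417, 289 and 370.1 TPM (FOS family) and 81.1, 87.9 and 71.8 TPM (JUN family) in Hey, and 281, 389 and 231 TPM and 107, 184 and 87.1 TPM in SKOV3. These shares have no replicate error. Sums, shares and ratios were not computed with the GC and length trend removed, so those of SKOV3 PGCCs may carry that trend.

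**Figure D4:**
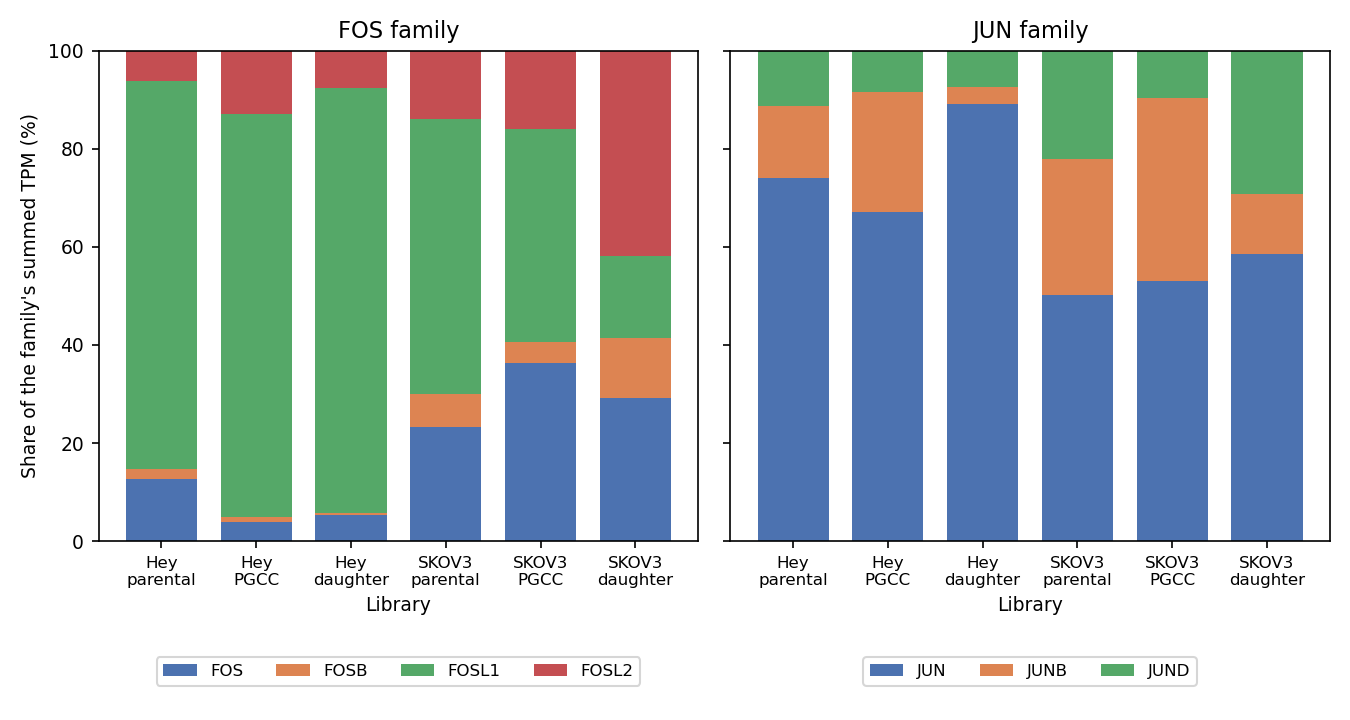
Share of each gene in the summed TPM of its family (%), FOS family on the left and JUN family on the right, with 1 bar per library. FOSL1 fills over 79% of the FOS family in each Hey library and 16.7% in SKOV3 daughter cells, and the JUNB share is largest in the PGCCs of each line. The GC trend of the SKOV3 PGCC library was not removed from these shares.

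The lines were next taken as the only repeat of each state, in 1 limma fit over all 14988 genes with state and line as terms and 2 residual degrees of freedom. Each gene's variance was drawn toward that of all genes, so an SE is not that gene's own spread alone. None of the 10 genes passed a Benjamini-Hochberg adjusted p of 0.05 in any of the 3 comparisons, and over all genes 3 (0.02%), 2 (0.0133%) and 0 (0%) did, for PGCCs against parental cells, daughter against parental cells and daughter cells against PGCCs. At an unadjusted p under 0.05 the limma counts over all genes were 409, 508 and 758, and JUNB was the 1 gene of the 10 in each. The limma estimate for JUNB was -2.64 (SE 0.391, limma adjusted p = 0.532) in daughter cells against PGCCs, -1.65 (SE 0.391, limma adjusted p = 1) in daughter against parental cells and 1.00 (SE 0.391, limma adjusted p = 1) in PGCCs against parental cells. The other 9 genes had limma adjusted p-values of at least 0.912. FOS and ATF3, whose PGCC differences had opposite signs in the lines, were averaged by this fit. With the Hey daughter library left out the fit called 105 genes in daughter against parental cells and 67 in daughter cells against PGCCs, still none of the 10, and with any other library left out it called between 0 and 1.

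Between the lines, 7 of the 10 genes were lower in Hey than in SKOV3 parental cells, as were 61.9% of all genes, and 8 in PGCCs (61.6%) and in daughter cells (63.4%). In parental cells 6 of the 10 were called (35.7% of all genes either way), of which ATF3 (-2.65), EGR1 (-1.67), JUND (-1.28), JUNB (-1.23) and FOSB (-1.07) were lower in Hey and FOSL1 (1.06) higher. Over all genes 24.2% were called lower in Hey there and 11.5% higher. In PGCCs 5 were called (43% of all genes), each lower in Hey (29.6% of all genes, with 13.4% higher), with EGR1 at -4.11 and FOS at -3.56. With the GC and length trend removed, JUNB (-0.85) and JUND (-0.22) were no longer called in PGCCs and FOSL1 was called higher in Hey (1.05), and JUND was also lost under median ratio scaling (-0.86) and quantile normalization (-0.74). In daughter cells 8 were called (41.8% of all genes), with 7 lower in Hey (29.5% of all genes) and FOSL1 higher by 3.02 (12.3% of all genes higher). ATF3 was 0.62 above SKOV3 in Hey PGCCs and below it in the other states. JUN and DUSP1 were not called between the lines in any state, and FOSL2 only in daughter cells (-1.75). In parental cells 3 of the calls, FOSB, JUNB and JUND, were lost when libraries were scaled by median ratios (-0.78, -0.92 and -0.99). Over all genes the median difference between the lines was -0.29 for parental cells, -0.35 for PGCCs and -0.38 for daughter clones.

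Of 20 genes known to be activated through AP-1 in other systems, 12 rose in Hey PGCCs against parental cells and 0 fell, with a median difference of 1.61 against 0.00 over all genes. Of the 18 with a mean of at least 1 TPM, the filter of the background, 11 rose, against 7.67% of all genes. Interleukin 6 (IL6) was at 8.74, 168 and 8.69 TPM in Hey parental cells, PGCCs and daughter cells and at 10.5, 28.8 and 19.2 TPM in SKOV3. The collagenase gene MMP1 was at 1.41, 98.1 and 0.951 TPM in Hey, whereas in SKOV3 it was at 344, 114 and 0.342 TPM. Heme oxygenase (HMOX1) rose in PGCCs of both lines (2.27 and 1.34), as did IL6 (4.12 and 1.37). In SKOV3 PGCCs 2 of the 20 rose and 1 fell, all 3 among the 18, which was near the background (9.94% up and 4.96% down), with a median of 0.03. With the GC and length trend removed HMOX1 was no longer called in SKOV3 PGCCs (0.81) and IL6 was (1.76). In Hey daughter cells against PGCCs 0 rose, 12 fell and all 20 differences were below 0 (median -1.49), and 11 of the 18 fell, against 8.13% of all genes. In SKOV3 daughter cells against PGCCs 2 rose and 5 fell, all among the 18 (background 14.6% up and 9.25% down, median -0.40). MMP1 (-5.67 in Hey and -6.42 in SKOV3), MMP10 and the growth factor gene AREG were called lower there in both lines. Against parental cells, daughter cells had 0 up and 2 down in Hey (background 6.31% and 3.73%) and 2 up and 5 down in SKOV3 (15.1% and 6.34%), and the growth factor gene VEGFA was called lower in both (-1.36 and -1.005). Several of these genes also answer to NF-kappaB, and the list was drawn up with earlier results of these data known.

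Of 32 other immediate-early genes, 3 rose and 2 fell in Hey PGCCs (median 0.13) and 1 rose and 0 fell in SKOV3 PGCCs (median 0.04). Of the 29 with a mean of at least 1 TPM, 2 rose and 2 fell in Hey PGCCs, near the background of 7.67% and 5.22%, and 1 rose in SKOV3 PGCCs, below the background of 9.94%. Removing the GC and length trend gave 1 up and 1 down among the 29 in SKOV3 PGCCs, and their median went from 0.10 to -0.31. BTG2, an antiproliferative gene also induced by p53, was at 5.16, 36.8 and 17.7 TPM in Hey and at 4.73, 4.10 and 8.29 TPM in SKOV3. CCN1, a matricellular protein gene, took opposite directions in the lines, as FOS did: it was at 459, 106 and 323 TPM in Hey and at 3.45, 46.7 and 49.9 TPM in SKOV3, with PGCC differences of -2.11 and 3.42. IER3 was called lower in daughter cells than in PGCCs in both lines (-2.19 and -1.65). In that comparison 1 of the 32 rose and 5 fell in Hey (background 9.95% and 8.13%, median -0.39 against 0.03 over all genes), and 1 rose and 8 fell in SKOV3 (14.6% and 9.25%, median -0.27 against 0.12). Against parental cells 2 rose and 2 fell in Hey daughter cells (6.31% and 3.73%, median -0.23 against 0.05), and 2 rose and 7 fell in SKOV3 daughter cells (15.1% and 6.34%, median -0.40 against 0.15). In SKOV3 daughter cells 22 of the 32 were below the parental level and 21 below the PGCC level, against 39.9% and 42.4% of all genes. With the GC and length trend removed, 10 instead of 7 fell in SKOV3 daughter cells against parental cells and 4 instead of 8 against PGCCs. All these calls in daughter cells were among the 29.

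Of 15 feedback inhibitors of MAP kinase signalling (DUSP, SPRY and SPRED genes), 3 rose and 0 fell in Hey PGCCs (background 7.67% and 5.22%) and 1 rose and 0 fell in SKOV3 PGCCs (9.94% and 4.96%). DUSP8 was called in both (1.16 and 1.25), from low levels of 0.0518 TPM in Hey and 2.52 TPM in SKOV3 parental cells, and its SKOV3 call was lost with the GC and length trend removed (0.16). In daughter cells against parental cells 0 rose and 2 fell in Hey (6.31% and 3.73%), and 2 rose and 4 fell in SKOV3 (15.1% and 6.34%), and DUSP4, a nuclear ERK phosphatase, fell in both (-1.08 and -3.21). Of 19 MAP kinase and SRF-type genes, 0 were called in Hey PGCCs, against 7.67% of all genes up and 5.22% down. MAP2K3, at 0.95 there, was at 1.01 after removal of the GC and length trend. In SKOV3 PGCCs 3 rose, against 9.94% of all genes, namely the p38 kinase kinase MAP2K3 (1.41), the SRF coactivator MRTFA (1.35) and SRF itself (1.16). None of the 3 was called with the GC and length trend removed (0.80, 0.49 and 0.36). SRF and MRTFA differed by -0.63 and -0.37 in Hey PGCCs. Of 11 other bZIP partners of AP-1, 9 had a mean of at least 1 TPM, and 0 were called in the PGCCs of either line. The background was 7.67% up and 5.22% down in Hey and 9.94% and 4.96% in SKOV3, so few calls would be looked for among so few genes. JDP2, which represses AP-1, differed by -0.92 in Hey and 0.81 in SKOV3.

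Because ATF3 is also induced by the ATF4 and CHOP stress response, 10 genes of that response were set beside it. In Hey PGCCs 1 rose and 2 fell, against 7.67% and 5.22% of all genes. DDIT3, which encodes CHOP, was at 16.7, 87.9 and 20.05 TPM in Hey parental cells, PGCCs and daughter cells, the same order as ATF3, and at 68.7, 63.0 and 61.1 TPM in SKOV3. The asparagine synthetase gene ASNS was called lower in Hey PGCCs (-1.04) and higher in the daughter cells of both lines than in parental cells (1.36 and 3.11). In SKOV3 2 rose in PGCCs, CHAC1 (1.84) and TRIB3 (1.27), and 0 fell, against 9.94% and 4.96% of all genes. With the GC and length trend removed these values were 1.08 and 0.48.

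**Figure D5:**
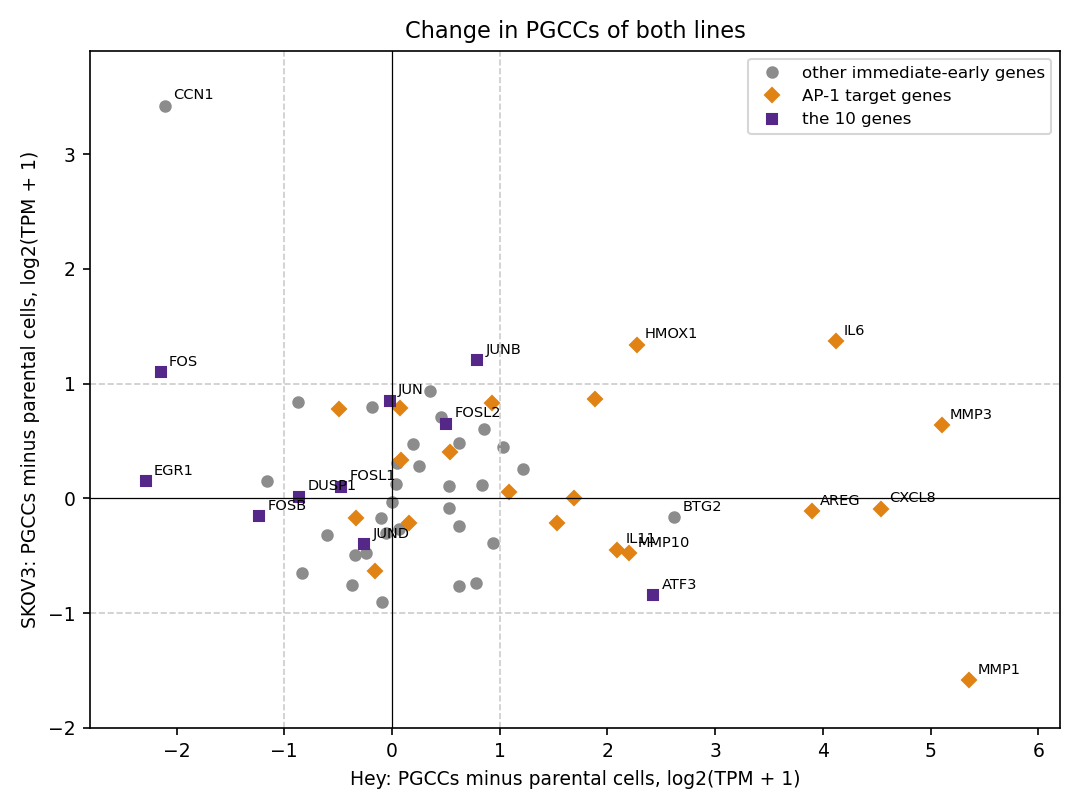
Difference between PGCCs and parental cells (log2(TPM + 1)) in Hey (horizontal) and SKOV3 (vertical) for the 10 genes (squares), other immediate-early genes (circles) and AP-1 target genes (diamonds), with 1 point per gene. Labels mark the 10 genes and others with a large difference. FOS and CCN1 lie high on the left, and 12 target genes lie to the right of the 2-fold line for Hey, 2 of them (IL6 and HMOX1) also above the one for SKOV3. Removing the GC and length trend takes HMOX1 to 0.81 for SKOV3.

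For the 3 genes with the widest range, the genes of the most similar level pattern were found by Pearson's r of log2(TPM + 1) over the 6 libraries, which share 2 lines, among 10791 genes with a mean of at least 5 TPM. For JUNB they were TRIP10 (r = 0.979), GZF1 (0.974) and RRP36 (0.974), and 9 genes reached 0.95. For EGR1 they were WRNIP1, CAV1 and MTARC2 (each 0.991), and 92 genes reached 0.95. For FOS they were FDFT1 (0.990), GRHPR (0.987) and ACTG1 (0.985), and 31 genes reached 0.95. CAV1, for example, was at 426, 227 and 198 TPM in Hey parental cells, PGCCs and daughter cells and at 759, 772 and 919 TPM in SKOV3, the difference between the lines that EGR1 also had.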

How the data were processed

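The authors trimmed reads with fastp and quantified them with Salmon 0.14.1 on the human genome build hg38, per the labels, and deposited TPM values, 1 per gene symbol and library, in 1 table of 6 libraries. The annotation release, the bias options, strandedness and how transcripts were summed to genes are not given in the sources used here. TPM values carry no counts, so depth per gene is unknown and count tests were not used.

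Differences of log2(TPM + 1) were taken between libraries, with a call at 2-fold. The background and limma used genes with a mean of at least 1 TPM, and counts over a gene list cover all its genes unless stated. A fold on this scale understates the change of low genes. Grouping followed the labels. limma 3.58.1 (R 4.3.3) fitted state and line with a mean trend and Benjamini-Hochberg adjustment, and was tested on simulated data. P-values and SEs rest on the disagreement between the 2 lines, not on replicates. The fit (eBayes) drew each gene's variance toward that of all genes, so they are not that gene's own spread alone. Transcript GC content, length and gene positions were taken from GENCODE 44, and trends on GC and length were removed by lowess (statsmodels 0.14.6, Python 3.11.15). Promoter windows were matched by symbol to RefSeq (GRCh38.p14) for 9 of the 10 genes, and the motifs were chosen after the sequences were seen.

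All 10 genes are named. Of the related gene lists, those called the same way in both lines, and the largest 2 rises and falls in PGCCs of each line among genes with a mean of at least 5 TPM, could be named. The genes and lists were chosen with earlier results of these data known. Alternatives were another pseudocount (0.1), median ratio scaling, quantile normalization, leaving out mitochondrial genes, removing the GC trend, call thresholds of 1.5 and 3 times, and family shares without one member. The limma fits with each library left out and the gene lists with the GC trend removed were added after the data were seen.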

Additional observations from a re-analysis of the deposited data

Results flagged for a closer look

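The PGCC libraries differed from their parental libraries with opposite signs for FOS, by a log2 difference of -2.15 in Hey and 1.10 in SKOV3. With 1 library per condition, the difference between the lines was not tested. In SKOV3 the value was 0.89, below the 2-fold call, once the trend on GC content and length was removed, and in Hey it stayed at -2.16.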

How the results depend on the processing

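Of the 90 differences of the 10 genes, 75 kept their side of the 2-fold call and their called sign under 5 alternatives of scaling and pseudocount. Removing the GC and length trend changed the number of genes called from 2 to 1 in SKOV3 PGCCs against parental cells and from 3 to 5 in SKOV3 daughter cells against PGCCs. In the latter, FOS (-0.88) was lost and FOSB (1.07), JUND (1.39) and ATF3 (1.02) were called higher. JUNB (-1.84) and FOSL1 (-1.61) were still called lower there, by less than before. Median ratio scaling and quantile normalization each left 3 of the 6 calls between parental cells of the lines. A 1.5-fold threshold gave 5 in SKOV3 PGCCs against parental cells, 7 in SKOV3 daughter cells against PGCCs and 9 between the PGCCs of the lines. A 3-fold threshold gave 0 in SKOV3 PGCCs against parental cells, 1 in SKOV3 daughter against parental cells and 2 between parental cells of the lines. The share of all genes called was not computed under these alternatives of scaling, trend or threshold. Their counts therefore have no background and describe only how the calls moved. Without FOSL2 the FOSL1 share was 84.4%, 94.4% and 93.8% in Hey parental cells, PGCCs and daughter cells and 65.2%, 51.8% and 28.8% in SKOV3. Without JUND the JUN share was 83.3%, 73.3% and 96.4% in Hey and 64.6%, 58.6% and 82.6% in SKOV3. Leaving out mitochondrial genes moved the median of all genes by up to 0.12 in Hey, against parental cells, and from 0.12 to 0.23 in SKOV3 daughter cells against PGCCs. The limma count of 0 of the 10 genes did not change in any alternative, including each library left out, which leaves 1 residual degree of freedom. The limma fit pairs the states within each line, and without the line term it also called 0 of the 10 genes. No paired analysis by replicate number was run, since each condition has 1 library.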
